A study of Mus musculus with 37 samples.

Results

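The comparison described here is that of wild-type mouse gastrocnemius at 4 weeks of age with wild-type gastrocnemius at 2 weeks. CPM below stands for counts scaled to library size with TMM factors, and a log2 fold change is 4 weeks over 2 weeks. The members are the 12 wild-type libraries of those ages, chosen by genotype and age from the labels, out of 37 libraries in all. The 2-week group held animals 21, 23, 24, 25, 26 and 32, and the 4-week group held animals 1 to 6. The other libraries came from wild-type mice of 6 and 8 weeks (7 libraries) and from mice labelled as knockouts, in skeletal muscle, of Nampt, the enzyme that rebuilds NAD from nicotinamide (18 libraries, 10 of them of 2 and 4 weeks).

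Every animal of the comparison was labelled wild type, and no treatment was given in the labels. The strain, the litters and whether these animals carry an unrecombined floxed allele are not given in the sources used here. The 4-week animals 1, 3 and 4 were labelled female and animals 2, 5 and 6 male, and sex was not collected at 2 weeks. Sequencing pool A held animals 21, 23, 1, 2 and 3, and pool B held animals 24, 25, 26, 32, 4, 5 and 6. Each library came from a different animal, so the spread within a group is a spread between animals. Total RNA was depleted of ribosomal RNA, so histone messengers, which have no poly(A) tail, were measured along with the rest.

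The gastrocnemius is a mostly fast calf muscle. After birth its fibres exchange embryonic and neonatal myosin heavy chains for adult ones, enlarge their calcium stores and build up glycolytic enzymes, while the precursor cells that fuse into the fibres leave the cell cycle. Weaning falls in this interval in laboratory mice. The imprinted genes that drive fetal growth are known to be turned down after birth in many organs.

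The promoters of 6 genes are shown, of 3 myosins that are neighbours and changed unequally and of 3 genes of cell division, so that the regions can be set beside the values. Each is 250 bases before to 50 bases after the start site, from RefSeq on GRCm38.p6, written along the gene's own strand. Myh3 (embryonic), Myh8 (neonatal) and Myh4 (adult fast 2B) are myosin heavy chain genes of 1 cluster on chromosome 11, and capitals mark E-boxes (CANNTG, the same on both strands), the element bound by myogenic factors such as MyoD and myogenin.
Myh3 (chr11:67078050-67078349, plus strand): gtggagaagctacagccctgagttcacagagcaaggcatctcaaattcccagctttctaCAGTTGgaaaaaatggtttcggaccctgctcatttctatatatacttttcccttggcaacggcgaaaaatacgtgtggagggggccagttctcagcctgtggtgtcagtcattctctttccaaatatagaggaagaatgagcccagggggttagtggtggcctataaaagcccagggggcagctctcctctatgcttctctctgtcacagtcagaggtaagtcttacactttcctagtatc
Myh8 (chr11:67276874-67277173, plus strand): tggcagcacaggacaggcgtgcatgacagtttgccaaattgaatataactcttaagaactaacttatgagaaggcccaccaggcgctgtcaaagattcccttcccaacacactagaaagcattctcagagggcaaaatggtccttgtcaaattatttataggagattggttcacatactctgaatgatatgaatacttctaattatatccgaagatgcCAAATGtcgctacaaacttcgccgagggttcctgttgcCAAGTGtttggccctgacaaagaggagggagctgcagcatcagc
Myh4 (chr11:67237562-67237861, plus strand): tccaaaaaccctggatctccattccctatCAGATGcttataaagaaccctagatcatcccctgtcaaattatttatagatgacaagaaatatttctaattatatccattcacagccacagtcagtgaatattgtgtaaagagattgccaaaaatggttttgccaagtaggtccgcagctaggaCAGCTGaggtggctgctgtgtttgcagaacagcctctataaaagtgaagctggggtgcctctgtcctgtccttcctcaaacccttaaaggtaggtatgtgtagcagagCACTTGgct
Top2a, Ccnb1 and Cdk1 stand for the genes of cell division. In their promoters capitals mark the cell cycle genes homology region, CHR (TTTGAA on either strand), and the CCAAT box (CCAAT on either strand), which together are a known arrangement in genes of the G2 phase and mitosis.
Top2a (chr11:99024140-99024439, minus strand): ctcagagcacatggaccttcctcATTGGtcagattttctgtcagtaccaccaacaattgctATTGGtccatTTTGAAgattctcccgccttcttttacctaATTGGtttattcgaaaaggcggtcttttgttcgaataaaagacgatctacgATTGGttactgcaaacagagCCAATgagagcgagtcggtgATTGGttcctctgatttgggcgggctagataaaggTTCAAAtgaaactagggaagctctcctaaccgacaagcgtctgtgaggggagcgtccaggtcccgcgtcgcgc
Ccnb1 (chr13:100786437-100786736, minus strand): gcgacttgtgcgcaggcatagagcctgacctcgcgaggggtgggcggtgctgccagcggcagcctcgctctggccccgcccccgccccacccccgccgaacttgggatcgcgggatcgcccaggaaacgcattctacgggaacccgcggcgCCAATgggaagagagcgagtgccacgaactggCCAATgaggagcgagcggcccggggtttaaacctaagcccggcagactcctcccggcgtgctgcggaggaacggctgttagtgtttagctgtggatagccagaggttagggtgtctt
Cdk1 (chr10:69352863-69353162, minus strand): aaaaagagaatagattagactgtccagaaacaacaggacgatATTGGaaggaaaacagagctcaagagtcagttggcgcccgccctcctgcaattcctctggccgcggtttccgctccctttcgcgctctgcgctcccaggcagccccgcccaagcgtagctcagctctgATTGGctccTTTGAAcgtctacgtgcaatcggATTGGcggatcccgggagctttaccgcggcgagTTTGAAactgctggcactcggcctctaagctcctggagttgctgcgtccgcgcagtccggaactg
An E-box stood in 72.3% of all 32841 promoter windows, so holding one is common. CHR and CCAAT letters stood together in 18 of the 35 windows matched to the cell cycle list (51.4%; 33 of its 40 genes had an entry) and in 6.95% of all windows. The Ccnb1 window held CCAAT boxes and no CHR letters. These matches are letters in a window and were not tested as binding sites.

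Total counts ran from 10795778 to 23134727 per library, and 14147 of 50686 genes passed the filter on low counts. The first principal component held 56.9% of the variance and separated all 2-week from all 4-week libraries. Some libraries stood apart. Genes annotated as nuclear rRNA held 11.6% of the counts of 4-week animal 3 and 8.49% of animal 4, against at most 0.439% in the other 10 libraries, and mitochondrially encoded RNA held 25% of counts in animal 3 against 4.6 to 10.9% elsewhere. The 4-week animals 1 and 2 carried more cell cycle RNA than the other 4-week animals, with values given below. Animal 4, labelled female, had 44.8 CPM of Xist, transcribed from the silenced X, together with 7.95 CPM (66 counts) of the Y-linked Ddx3y, which read 0 in the other females. In the 2-week group the level of Xist put animals 21 and 25 apart from the other 4, which expressed Ddx3y. All 10 genes listed as markers of skeletal muscle fibres were abundant at both ages, with summed levels of 172112 to 193372 CPM at 2 weeks and 237866 to 332459 CPM at 4 weeks.

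Over these 2 weeks of growth, 8375 of 14147 genes changed (59.2%), with an adjusted p under 0.05 by edgeR's quasi-likelihood test with pool as a term. Of these, 4114 were higher (29.1% of genes tested) and 4261 lower (30.1%) at 4 weeks. Changes of more than 2-fold were fewer and mostly downward, with 320 genes higher (2.26%) and 1008 lower (7.13%). In 4986 genes (35.2%) the 6 libraries of one age lay entirely outside the range of the other. These shares are the background against which the counts of each gene group are read below, and the median log2 fold change of all genes tested was -0.02.

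The split between higher and lower genes rests on how the libraries are scaled. The 20 most abundant genes held 33.8 to 35.7% of counts at 2 weeks and 38.5 to 46.2% in animals 1, 2, 5 and 6 at 4 weeks. In the rRNA-rich animals 3 and 4 they held 61 and 48.7%, where mitochondrial rRNA alone took 23.5 and 8.81%. TMM scaling adjusts for such shifts. With library sizes alone 567 genes were called higher and 8201 lower (6.47% of calls higher, against 49.1% in the main fit), and the median of all genes moved to -0.48. All values below are relative to the TMM scale, on which a gene that keeps pace with the typical gene reads 0, and a group's median that turns with library sizes alone is given beside it. Within pool A, which has 2 animals of 2 weeks and 3 of 4 weeks, 4148 genes were called, and within pool B, with 4 and 3, 7411.

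Myosin heavy chains, the motors of the thick filament, shifted from developmental and slow forms towards the adult fast 2B form. Myh8, the neonatal chain, had 297 to 459 CPM (median 359) at 2 weeks and 11.8 to 37.7 (median 19.9) at 4 weeks (log2 fold change -4.01, SE 0.22, adjusted p = 1.85e-07). Myh3, the embryonic chain, had 108 to 129 CPM (median 118) at 2 weeks and 12.3 to 17 (median 14.2) at 4 weeks (log2 fold change -3.03, SE 0.08, adjusted p = 1.18e-13). Both fell to levels that no 2-week library approached, and both fell in each pool, with log2 fold changes for Myh8 of -4.48 in pool A and -3.67 in pool B. Myh7, the slow chain, had 885 to 1245 CPM (median 1072) at 2 weeks and 143 to 339 (median 252) at 4 weeks (log2 fold change -2.12, SE 0.17, adjusted p = 5.53e-07), again without overlap. Myh7b, a slow-type chain, had 2.34 to 4.05 CPM (median 2.81) at 2 weeks and 0.843 to 2.72 (median 2.22) at 4 weeks (log2 fold change -0.63, SE 0.21, adjusted p = 0.0172), with overlapping groups, and its call was lost without animal 5.

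The adult fast chains moved far less. Myh4, the 2B chain, had 44447 to 53324 CPM (median 49324) at 2 weeks and 54407 to 90819.5 (median 62293) at 4 weeks and rose (log2 fold change 0.38, SE 0.10, adjusted p = 0.00465), a direction that turned to -0.10 with library sizes alone. Its highest value came from animal 1, and the other 5 animals of 4 weeks lay between 54407 and 66208 CPM. Myh1, the 2X chain, fell from 6806 to 7577 CPM at 2 weeks to 4886 to 6330.1 at 4 weeks (log2 fold change -0.45, SE 0.07, adjusted p = 6.65e-05). Myh2, the 2A chain, overlapped between ages at 2333 to 3416 and 2116 to 2603 CPM (log2 fold change -0.26, SE 0.09, adjusted p = 0.0245), and its call was lost when any of animals 25, 32, 5 and 6 was left out. Myh13, the extraocular chain, was present at low level and fell (log2 fold change -0.41, SE 0.12, adjusted p = 0.00604), with overlapping groups. With all 37 libraries in the fit the calls of Myh4 (adjusted p = 0.231), Myh13 (adjusted p = 0.378), Myh2 and Myh7b were lost, and within pool A alone those of Myh4 (adjusted p = 0.06), Myh13 (adjusted p = 0.554), Myh1, Myh2 and Myh7b.

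Shares among Myh1, Myh2, Myh3, Myh4, Myh7 and Myh8 were taken from counts divided by exon length, and do not depend on library scaling. By this measure Myh4 held 81.1 to 84.7% at 2 weeks and 88.7 to 91.6% at 4 weeks. The share of Myh1 went from 11.4 ± 0.913% to 6.99 ± 0.691%, that of Myh2 from 4.04 ± 0.683% to 2.82 ± 0.378%, and that of Myh7 from 1.26 ± 0.161% to 0.244 ± 0.0864% (SD, n = 6 each). The developmental chains were already minor at 2 weeks, when Myh8 held 0.317% and Myh3 0.199% of this length-scaled total. Per kilobase of exon, the 2-week levels of Myh4, Myh1, Myh2, Myh7, Myh8 and Myh3 were 8161, 1122, 396, 124, 31.3 and 19.6 FPKM. The genes of this cluster share stretches of sequence, and how reads that fit several genes were counted is not given in the sources used here, so small values of one beside the very abundant Myh4 are uncertain.

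**Figure D1:**
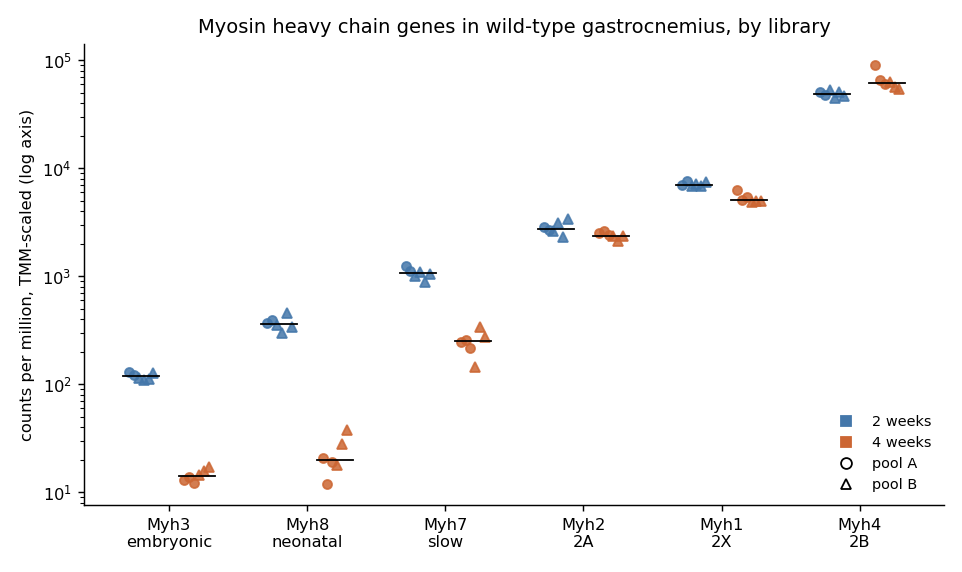
CPM on the TMM scale (log axis) of 6 myosin heavy chain genes in the 6 libraries of 2 weeks (blue) and the 6 of 4 weeks (orange), with circles for pool A, triangles for pool B and bars at the median. Myh3, Myh8 and Myh7 were lower in every 4-week library than in any 2-week library, while Myh4 rose on this scale and turned to -0.10 log2 units with library sizes alone.

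Developmental and cardiac forms of other sarcomere proteins fell with the myosins. In this list of 17 genes 11 fell and 1 rose, with a median of -0.69 (-0.77 in pool A and -0.62 in pool B), against 30.1% of all genes lower. Ryr3, the ryanodine receptor of immature muscle, had 12.5 to 16.4 CPM (median 15.4) at 2 weeks and 2.88 to 4.99 (median 3.11) at 4 weeks (log2 fold change -1.97, SE 0.12, adjusted p = 2.15e-09). Myl6b, a light chain, had 11.9 to 21.9 CPM (median 16.7) at 2 weeks and 3.28 to 6.05 (median 4.53) at 4 weeks (log2 fold change -1.94, SE 0.14, adjusted p = 8.54e-09). Tnni1, slow troponin I, fell by 1.53 log2 units, Tnnt2, cardiac troponin T, by 1.3 and Tnnc1, slow and cardiac troponin C, by 1.24, each without overlap. Mybph, a myosin-binding protein, rose by 0.65. The cardiac alpha-actin Actc1 (0.23, adjusted p = 0.316), Csrp3, Ankrd1, Nebl and Lmod2 did not pass the test. With all 37 libraries of the series in the fit 7 members fell, and 3 rose without animal 4.

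The slow fibre program followed Myh7. Of its 13 genes 7 fell and 2 rose, with a median of -0.63 (-0.36 in pool A and -0.83 in pool B). Myl2 and Myl3, the slow regulatory and essential light chains, fell by 0.98 and 0.93 log2 units, and Myl2 had 232 to 290.0 CPM (median 262) at 2 weeks and 111 to 171 (median 128) at 4 weeks. Atp2a2, the slow calcium pump, fell by 0.98 and the slow troponin T Tnnt1 by 1.04. Smyd1, a methyltransferase needed for sarcomere assembly and not confined to slow fibres, rose by 0.95, and so did Ppargc1a (0.47), a coactivator of mitochondrial genes, which turned to -0.02 with library sizes alone. With all 37 libraries in the fit, in which 1 wild-type library of 8 weeks is rich in Myh7, only 1 of the 13 was called lower although the median stayed at -0.54.

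Genes of the adult fast sarcomere rose, with few exceptions. Of 25 genes 22 rose and 2 fell (Myh1 and Myh2), against 29.1% of all genes higher, with a median of 0.71 (0.74 in pool A and 0.63 in pool B). Actn3, the fast alpha-actinin of the Z-disc, had 4567 to 4903 CPM (median 4817) at 2 weeks and 9365 to 11790.0 (median 10670.4) at 4 weeks (log2 fold change 1.15, SE 0.07, adjusted p = 3.64e-09). Myoz1, which ties calcineurin to the Z-disc, had 862 to 952 CPM (median 932) at 2 weeks and 1507 to 2062 (median 1746) at 4 weeks (log2 fold change 0.95, SE 0.07, adjusted p = 2.32e-08). Tcap, the titin cap, rose by 1.69, Mylk2, the kinase of skeletal light chains, by 1.23, and fast troponin T, Tnnt3, by 1.1. Titin itself, Ttn, stood at 0.15 (adjusted p = 0.332). With library sizes alone the list's median was 0.23, 8 members were called higher, and Myh4, Mylpf, Myom2, Neb and Klhl41 turned below 0.

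The machinery that turns excitation into calcium release rose with the fast sarcomere. Of 24 genes 21 rose and none fell, with a median of 0.71 (0.78 in pool A and 0.63 in pool B). Cacna1s, the voltage sensor of the transverse tubule, had 686 to 762 CPM (median 703) at 2 weeks and 1201 to 1371 (median 1253) at 4 weeks (log2 fold change 0.83, SE 0.06, adjusted p = 2.02e-08). Ryr1, the adult calcium release channel, rose by 1.05, Atp2a1, the fast calcium pump, by 0.84, and Pvalb, the calcium buffer parvalbumin, by 0.80. The sodium channel Scn4a rose by 0.97, the chloride channel Clcn1 by 0.80 and the potassium channel Kcnc4 by 1.15. Fkbp1a, Sypl2 and Cacng1 did not pass the test. With library sizes alone 8 members were called higher and 3 lower, at a median of 0.24.

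Among the small peptides that set the speed of the calcium pump, sarcolipin, Sln, an inhibitor, had 16.5 to 23.3 CPM (median 18.6) at 2 weeks and 2.11 to 6.96 (median 4.54) at 4 weeks (log2 fold change -2.1, SE 0.19, adjusted p = 5.32e-07). Myoregulin, Mrln, another inhibitor, had 11.4 to 18.7 CPM (median 16.2) at 2 weeks and 18.5 to 38.5 (median 26.6) at 4 weeks and rose (log2 fold change 0.81, SE 0.19, adjusted p = 0.00296) with overlapping groups. Phospholamban, Pln, was near 1 CPM at both ages (log2 fold change 0.00, SE 0.26, adjusted p = 0.994).

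Many muscle proteins have an early, slow or broadly expressed form and an adult fast-muscle form from another gene. In 34 such pairs, listed from textbook knowledge after values of many of these genes had been seen, the adult member changed upward relative to its partner in all 34, a difference that does not depend on library scaling. In 22 pairs the early member fell and the adult member rose, each past the threshold. In 18 of these 22 pairs the directions were the same with library sizes alone, and in the other 4 (Myh3, Myh8 and Myh7 with Myh4, and Myl2 with Mylpf) the adult member turned slightly below 0. Among the 18, the rises of Myl1 (paired with Myl4 and with Myl3), Tnnc2, Casq1 and Cox8b were not called with library sizes alone. Some pairs share a member, so they are not independent.

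The widest exchange outside the myosins was that of ryanodine receptors, with Ryr3 at -1.97 and Ryr1 at 1.05. The splicing regulators Mbnl3 and Mbnl1 followed, at -1.58 and 1.0. Metabolic enzymes had such pairs too. Brain creatine kinase, Ckb, fell by 0.65 and muscle creatine kinase, Ckm, rose by 1.11. The broad enolase Eno1 fell by 0.74 while the muscle enolase Eno3 rose by 0.84, and hexokinase 1 fell by 0.46 while hexokinase 2 rose by 1.04. In cytochrome oxidase the broad subunits Cox6a1 and Cox8a fell by 0.47 and 0.69, and the muscle subunits Cox6a2 and Cox8b rose by 0.89 and 0.63.

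Per kilobase of exon, Ckm went from 4094 to 8861 FPKM and Ckb from 8.68 to 5.48. Ryr1 went from 96.2 to 201 FPKM and Ryr3 from 0.788 to 0.192. The adult forms were thus already the more abundant at 2 weeks in both pairs. Lactate dehydrogenase showed no exchange, since Ldhb and Ldha rose by 0.62 and 0.77. For the acetylcholine receptor the fetal Chrng fell by 2.14, and the adult Chrne did not pass the test, at 0.01 (adjusted p = 0.922).

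**Figure D2:**
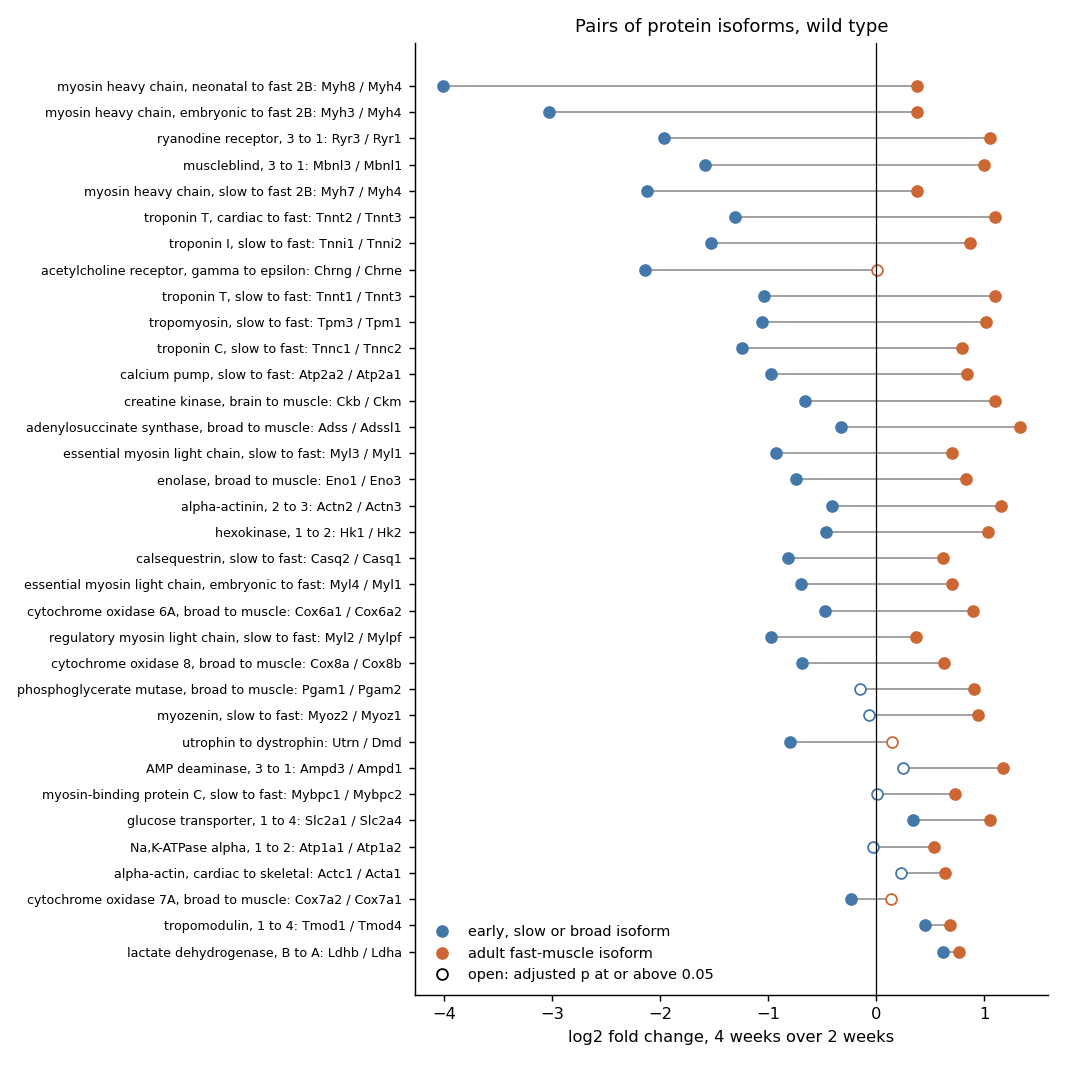
Log2 fold change, 4 weeks over 2 weeks, of the early, slow or broad member (blue) and the adult fast-muscle member (orange) of 34 protein pairs, with open circles where the adjusted p was 0.05 or more. The adult member lies to the right in all 34 pairs; with library sizes alone Myh4 and Mylpf turn below 0.

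Glycolysis and glycogen use rose strongly. Of 32 genes 29 rose and 2 fell, with a median of 0.82 (0.83 in pool A and 0.80 in pool B), and in 29 of them the groups did not overlap. Aldoa, muscle aldolase, had 5685 to 6427 CPM (median 5793) at 2 weeks and 13626 to 17386 (median 15205) at 4 weeks (log2 fold change 1.38, SE 0.08, adjusted p = 1.34e-09). Phka1, the regulatory subunit of muscle phosphorylase kinase, had 267 to 292 CPM (median 283) at 2 weeks and 734 to 951 (median 821) at 4 weeks (log2 fold change 1.57, SE 0.07, adjusted p = 1.60e-10). Pygm, muscle glycogen phosphorylase, rose by 1.16 and Slc2a4, the insulin-responsive glucose transporter, by 1.05. Pfkfb3 and Pfkfb1, which make the activator of phosphofructokinase, rose by 1.8 and 1.65. With library sizes alone 17 members were called higher, at a median of 0.34.

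Genes that buffer ATP through creatine and purine nucleotides moved in both directions. Muscle creatine kinase rose, with Ckm at 11150.0 to 13060.0 CPM (median 11859) at 2 weeks and 23959.5 to 31002 (median 24907) at 4 weeks (log2 fold change 1.11, SE 0.08, adjusted p = 1.27e-08), and so did mitochondrial creatine kinase, Ckmt2 (0.90), and the creatine transporter Slc6a8 (0.84), while brain creatine kinase, Ckb, fell by 0.65. Genes of creatine synthesis fell, with Gatm at 41.9 to 57.5 CPM (median 50.8) at 2 weeks and 11.5 to 26 (median 16.7) at 4 weeks (log2 fold change -1.45, SE 0.14, adjusted p = 1.60e-06) and Gamt at -1.06. The purine nucleotide cycle rose, Ampd1 by 1.17 and Adssl1 by 1.33. In all 8 of 12 members rose and 3 fell, with a median of 0.82, and the counts were similar with library sizes alone (6 higher, 3 lower).

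Mitochondrial genes had smaller medians, and their direction depends on the scaling. For the tricarboxylic acid cycle 17 of 20 genes rose and none fell, with a median of 0.42 that turned to -0.06 with library sizes alone. Idh3a, a subunit of isocitrate dehydrogenase, had 389 to 436 CPM (median 415) at 2 weeks and 621 to 717 (median 673) at 4 weeks (log2 fold change 0.71, SE 0.06, adjusted p = 8.82e-08). Among nuclear genes of the respiratory chain 24 of 30 rose and 3 fell (Cox8a, Cox6a1 and Cox7a2), with a median of 0.30 that turned to -0.17 with library sizes alone. Within pool A alone 4 of the cycle's genes and 3 of the chain's were called higher, with medians of 0.31 and 0.13, and within pool B the medians were 0.49 and 0.40.

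Regulators of mitochondria rose in 14 of 19 genes with none lower, at a median of 0.37 that turned to -0.10 with library sizes alone. Perm1, a muscle partner of PGC-1, had 114 to 125 CPM (median 117) at 2 weeks and 186 to 264 (median 217) at 4 weeks (log2 fold change 0.89, SE 0.08, adjusted p = 1.35e-07), and the fusion proteins Mfn1 and Mfn2 rose by 0.81 and 0.58. For beta-oxidation of fatty acids most genes did not pass the test. Of 34 genes of fatty acid and ketone oxidation 23 did not pass the test. In this list 8 rose (23.5%, against 29.1% of all genes) and 3 fell (8.82%, against 30.1%), with a median of 0.10 that turned to -0.37 with library sizes alone and to -0.17 in pool A. The 2 largest rises were in ketone use, Bdh1 (2.11, groups overlapping) and Oxct1, which had 98.6 to 117 CPM (median 109.9) at 2 weeks and 215 to 246 (median 228) at 4 weeks (log2 fold change 1.08, SE 0.06, adjusted p = 1.32e-09). Without animal 6, whose sum over this list was 6738 CPM against 3783 to 4777 in the other 4-week libraries, 8 members were called lower, and without animals 1 and 2 together 14 were called higher.

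Nampt, the gene the series is about, rose during wild-type growth. It had 50.3 to 75.2 CPM (median 66.3) at 2 weeks and 104 to 152 (median 119.7) at 4 weeks (log2 fold change 0.98, SE 0.11, adjusted p = 1.55e-06), without overlap, and its log2 fold change was 1.2 in pool A and 0.83 in pool B. Of 21 genes of NAD synthesis and use 11 rose and 4 fell, with a median of 0.24 that turned to -0.23 with library sizes alone. Nmnat1 and Nmnat3, nuclear and mitochondrial enzymes of the last step to NAD, rose by 0.57 and 0.53, and Nmnat2, the form of neurons and axons, fell by 0.92. Nnmt, which methylates nicotinamide, fell by 0.64, and Cd38, an enzyme that consumes NAD, by 0.35, the latter lost without any of animals 21, 25, 1, 2, 4 and 5. The number lower was 2 without animal 21 and also without animals 1 and 2 together.

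Genes of cell division fell. Of 40 genes 37 fell and none rose, against 30.1% of all genes lower, with a median of -1.76. Mki67, a marker of proliferating cells, had 45.8 to 80.3 CPM (median 56.4) at 2 weeks and 2.77 to 34.3 (median 4.72) at 4 weeks (log2 fold change -2.61, SE 0.50, adjusted p = 0.00208). Top2a, the topoisomerase of replicating chromosomes, had 33 to 56.9 CPM (median 44.8) at 2 weeks and 1.81 to 26.7 (median 3.82) at 4 weeks (log2 fold change -2.49, SE 0.51, adjusted p = 0.00308), and the promoter printed above is that of this gene. Ccnb1 and Cdk1, cyclin B1 and its kinase, fell by 2.31 and 2.35. Bub1, of the spindle checkpoint, had 3.36 to 5.49 CPM (median 4.05) at 2 weeks and 0.303 to 1.81 (median 0.522) at 4 weeks (log2 fold change -2.37, SE 0.32, adjusted p = 8.98e-06). Genes of DNA replication fell less, from -1.33 for Mcm5 to -0.38 for Mcm2, a call lost without animal 6, and Pcna, Ccne2 and Aurka did not pass the test.

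The 4-week libraries were not alike in these genes. Animals 1 and 2 had 261 and 277 CPM summed over the list, and animals 3, 4, 5 and 6 had 102, 94.5, 112 and 113. The 2-week libraries lay at 350.1 to 511 CPM, so animals 1 and 2 stood between. Mki67 showed the same, with 34.3 and 26.2 CPM in animals 1 and 2 and 4.39, 2.77, 4.04 and 5.05 in the other 4. Both animals were of pool A, where Mki67, Top2a, Ccnb1 and Cdk1 did not pass the test and the list's median was -1.11 with 17 genes called lower, against -2.48 and 37 in pool B. Without these 2 animals, an alternative chosen after seeing the data, 39 members fell at a median of -2.43. The part that pool, litter or exact age had in the difference between the 4-week animals was not tested.

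Replication-dependent histones fell with the cell cycle genes. Of 14 genes 13 fell and 1 rose (Hist1h1c, which turned to -0.06 with library sizes alone), with a median of -2.2 (-1.6 in pool A and -2.63 in pool B), and 5 were called lower in pool A alone. Hist1h3a, a histone H3 gene, had 5.11 to 9.9 CPM (median 7.57) at 2 weeks and 0.602 to 3.12 (median 1.34) at 4 weeks (log2 fold change -2.35, SE 0.27, adjusted p = 2.23e-06). Hist1h3c had 4.92 CPM in animal 2, and 0.12 to 1.09 in the other 4-week libraries (log2 fold change -2.68, SE 0.46, adjusted p = 0.000325), and its steepest value with 1 library left out was -3.52. Summed over the list the ages overlapped, at 424 to 565 CPM at 2 weeks and 301 to 478 CPM at 4 weeks, of which Hist1h1c alone held 157 to 203 and 199 to 284 CPM. Histone genes have near-identical copies, so the count of each is uncertain while the fall of the group is shared by 13 of them.

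**Figure D3:**
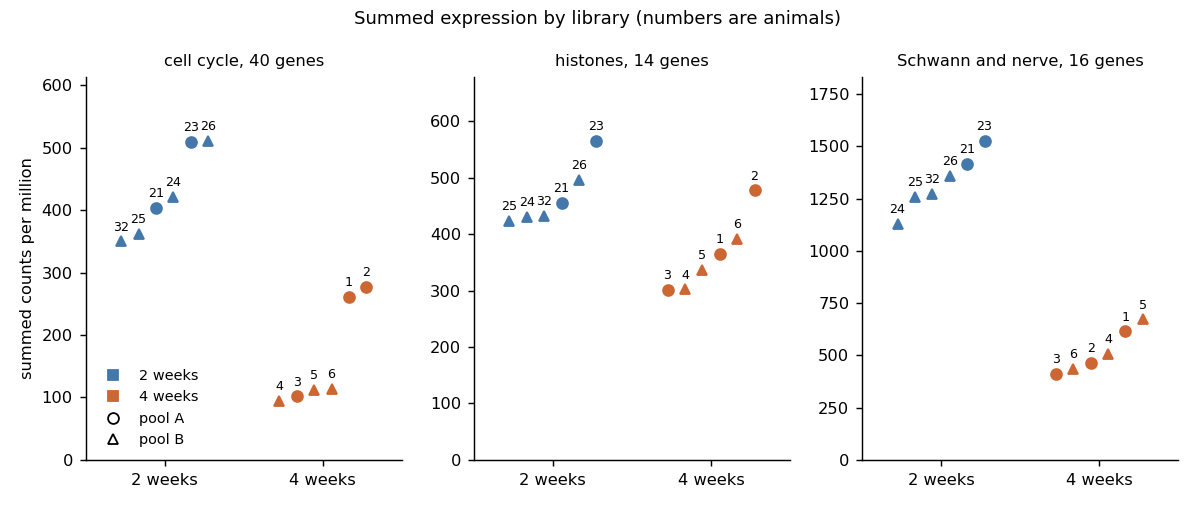
Summed CPM by library for the cell cycle list, the histone list and the Schwann cell and nerve markers, with 2 weeks in blue, 4 weeks in orange, circles for pool A and triangles for pool B, and the animal number above each point. Animals 1 and 2 stand at 261 and 277 CPM in the cell cycle panel, above the other 4-week animals and below all 2-week animals, while in the histone panel animal 2 lies within the 2-week range.

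Genes of muscle precursors and of cell fusion fell. Mymk, myomaker, the membrane protein that fuses myoblasts, had 8.3 to 11.2 CPM (median 9.41) at 2 weeks and 0.843 to 2.65 (median 1.4) at 4 weeks (log2 fold change -2.46, SE 0.20, adjusted p = 2.02e-08). Its partner Mymx, myomixer, had 2.21 to 4.34 CPM (median 3.33) at 2 weeks and 0 to 0.695 (median 0.272) at 4 weeks (log2 fold change -3.17, SE 0.38, adjusted p = 4.94e-07), so at 4 weeks it was close to the limit of detection. Pax7, the transcription factor of satellite cells, fell by 0.82 and Myog, which drives differentiation, by 1.41. Myf5 stood at -0.07 (adjusted p = 0.745). In the list of 26, 15 fell and 6 rose, at a median of -0.32 (-0.34 in pool A and -0.33 in pool B), and those that rose include genes that fibres also use, Des (0.66) and Mef2c (0.68). In a bulk sample, fewer cells of a type and less RNA per cell cannot be told apart, here or in the cell type results below.

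Imprinted genes, expressed from one parental copy and tied to fetal growth, fell together. Of 18 genes 17 fell and 1 rose (Dcn, 0.21, a call lost without animal 23 and -0.26 with library sizes alone), with a median of -1.79 (-1.93 in pool A and -1.46 in pool B). The steepest falls came from one domain of chromosome 12. Meg3, its maternally expressed long RNA, had 149 to 243 CPM (median 188) at 2 weeks and 13.4 to 23.3 (median 18.1) at 4 weeks (log2 fold change -3.38, SE 0.14, adjusted p = 1.17e-09). Rian and Mirg, the host RNAs of small RNAs of the same domain, fell by 2.91 and 2.95. The paternally expressed Rtl1 and Dlk1 of the domain fell by 3.11 and 2.45, so genes read from either parental copy fell.

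Igf2, the fetal growth factor on chromosome 7, had 712 to 1009.5 CPM (median 774) at 2 weeks and 85.7 to 253 (median 123) at 4 weeks (log2 fold change -2.45, SE 0.26, adjusted p = 2.33e-05). H19, its neighbour, moved much less, with 5569 to 6564 CPM (median 5978) at 2 weeks and 2098 to 6385 (median 3895) at 4 weeks (log2 fold change -0.52, SE 0.18, adjusted p = 0.0232), and its call was lost without any of animals 21, 23, 1 and 4. Plagl1, a zinc-finger regulator of imprinted genes, had 43.1 to 54.9 CPM (median 51.3) at 2 weeks and 12 to 17.3 (median 15.2) at 4 weeks (log2 fold change -1.77, SE 0.09, adjusted p = 3.32e-10). Cdkn1c, an inhibitor of the cell cycle, fell by 1.8, Mest by 1.97, Peg3 by 1.34 and Grb10, which dampens growth factor receptors, by 0.70.

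Genes of growth hormone and insulin-like growth factor signalling moved in both directions. Ghr, the growth hormone receptor, had 84.4 to 94.8 CPM (median 89) at 2 weeks and 136 to 204 (median 169.7) at 4 weeks (log2 fold change 0.92, SE 0.08, adjusted p = 7.64e-08), and Stat5b, its main signal carrier, rose by 0.87. Mstn, myostatin, a brake on muscle growth, rose by 0.76, and Akt2, the insulin-responsive kinase, by 0.75. Igf1 and its receptor Igf1r fell by 0.39 and 0.42, and the binding protein Igfbp4 by 0.71. In all 5 of 22 rose (22.7%, against 29.1% of all genes) and 8 fell (36.4%, against 30.1%), at a median of -0.03. Without animal 6 the number higher was 8.

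Extracellular matrix genes fell broadly. Of 35 genes of fibrillar matrix and its processing 31 fell and 1 rose, with a median of -0.92 (-0.84 in pool A and -0.88 in pool B). Col1a1, the main chain of collagen I, had 8289 to 11199.9 CPM (median 9950.0) at 2 weeks and 2336 to 5626 (median 4079) at 4 weeks (log2 fold change -1.29, SE 0.17, adjusted p = 2.88e-05). Fn1, fibronectin, had 508 to 686 CPM (median 595) at 2 weeks and 239.7 to 423 (median 314) at 4 weeks (log2 fold change -1.0, SE 0.09, adjusted p = 2.13e-07). Postn, periostin, fell by 1.72, the elastic-fibre protein Fbn2, typical of developing tissue, by 1.69, and Eln, elastin, by 0.93. Enzymes that finish collagen fell too, Plod2 by 0.92 and Bmp1 by 0.80, whereas P4ha1 stood at 0.06 (adjusted p = 0.588) and P4ha2 rose by 0.35, a value that turned to -0.11 with library sizes alone.

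In the basement membrane, the sheet that wraps each fibre, 16 of 18 genes were lower and none higher, at a median of -0.87 (-0.96 in pool A and -0.78 in pool B). Nid2, nidogen 2, had 94.4 to 111 CPM (median 99.6) at 2 weeks and 37.2 to 52.6 (median 44.7) at 4 weeks (log2 fold change -1.19, SE 0.08, adjusted p = 4.28e-09). Col4a1, of collagen IV, fell by 1.11 and Col18a1 by 1.16, while Lama2, the laminin chain of adult muscle, fell by 0.46 and Lamb2 stood at -0.02 (adjusted p = 0.778). Markers of the fibroblasts that make much of this matrix moved in both directions. Of 14, 7 fell (50%, against 30.1% of all genes) and 4 rose (28.6%, near the 29.1% of all genes). Their summed levels were 2009 to 2147 CPM at 2 weeks and 1973 to 2549 CPM at 4 weeks, which overlapped. Pdgfra, a defining marker of these cells, fell by 0.31, and Gsn rose by 1.03. Their part in the fall of matrix genes was not tested.

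Markers of nerve and Schwann cells fell in 15 of 16 genes, with a median of -1.04 (-1.21 in pool A and -0.97 in pool B) and summed levels of 1129.7 to 1525 CPM at 2 weeks and 410.3 to 672 CPM at 4 weeks. Mag, a myelin protein, had 8.46 to 11.9 CPM (median 9.29) at 2 weeks and 2.46 to 4.3 (median 3.45) at 4 weeks (log2 fold change -1.52, SE 0.12, adjusted p = 2.95e-08). Prx, periaxin, fell by 1.27 and Sox10, the transcription factor of the lineage, by 0.98. Endothelial markers fell in 10 of 14 genes at a median of -0.45, with Cdh5 at -0.81 and Pecam1 at -0.59. Markers of pericytes and smooth muscle fell in 8 of 11 at a median of -0.49, with Acta2, smooth muscle actin, at 297 to 459 CPM (median 408) at 2 weeks and 77.9 to 206 (median 122) at 4 weeks (log2 fold change -1.57, SE 0.19, adjusted p = 3.30e-05). Muscle fibre markers rose in 9 of 10 at a median of 0.80, with Myh4 and Mylpf below 0 with library sizes alone.

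Counts of called blood and immune cell markers varied with the libraries included. Of the mast cell and granulocyte markers 5 were tested, all of them mast cell genes, so granulocytes are not covered. Among these 5, 4 were lower, led by Kit, a receptor of mast cells and other cells (log2 fold change -1.51, SE 0.18, adjusted p = 2.27e-06). The number lower was 1 without animal 5 and 2 without animal 6. Of 8 erythroid markers 3 were higher (37.5%, against 29.1% of all genes), namely Hba-a1, Hba-a2 and Alas2. The list's median of 0.31 turned to -0.18 with library sizes alone, and the call of Hba-a2 was lost without animal 21 or 5. Macrophage markers were lower in 4 of 16 genes (25%, near the 30.1% of all genes) and higher in none. The number lower was 1 without animal 5 or 6, 2 without animal 21 or 32 and 7 without animal 2. Of 18 lymphocyte markers 2 were abundant enough to be tested, Ighm and Tcf7, and neither passed. The 2-week animal 25 carried 95.7 CPM summed over the lymphocyte markers against 9.03 to 17.2 in the other 2-week animals. Without it Ighm, the heavy chain of immunoglobulin M, passed the test at 1.08 (adjusted p = 0.000257), against 0.49 (adjusted p = 0.417) with it. Tcf7, a T cell factor, stood at -1.14 (adjusted p = 0.112) and passed with library sizes alone and with DESeq2. Of 10 adipocyte markers tested 5 fell and 1 rose, the latter being Car3, carbonic anhydrase III, which muscle also expresses and which had 476 to 676 CPM (median 569) at 2 weeks and 1184 to 3094 (median 2505) at 4 weeks (log2 fold change 2.01, SE 0.20, adjusted p = 8.71e-06). The defining adipocyte gene Adipoq fell by 0.52, a call lost without animal 21, and 2 markers were called lower without that animal.

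At the neuromuscular junction the fetal subunit of the receptor fell, and the adult one did not pass the test. Chrng, the gamma subunit of the fetal acetylcholine receptor, had 1.37 to 1.96 CPM (median 1.6) at 2 weeks and 0 to 0.568 (median 0.362) at 4 weeks (log2 fold change -2.14, SE 0.30, adjusted p = 4.42e-06). Chrne, the adult epsilon subunit, had 13 to 18.2 CPM (median 15.8) at 2 weeks and 13.3 to 18.1 (median 16) at 4 weeks (log2 fold change 0.01, SE 0.09, adjusted p = 0.922), and read -0.46 with library sizes alone. Agrn, agrin, which clusters receptors, fell by 1.27, its receptor Lrp4 by 0.57 and the shared subunit Chrna1 by 0.50, and Rapsn, the scaffold of the receptor, rose by 0.40, a value that turned to -0.06 with library sizes alone. Of 17 genes 7 fell and 2 rose (Rapsn and Colq), both of which turned below 0 with library sizes alone. Utrn, utrophin, had 191 to 208 CPM (median 196) at 2 weeks and 107 to 120.5 (median 114) at 4 weeks (log2 fold change -0.80, SE 0.06, adjusted p = 8.29e-09), while its relative Dmd, dystrophin, stood at 0.15 (adjusted p = 0.0935) and Sgca, alpha-sarcoglycan, rose by 0.82.

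Among all genes, the 14 largest rises with adequate level and the same sign in both pools were led by Timp4, an inhibitor of matrix metalloproteinases, with 4.33 to 7.67 CPM (median 5.33) at 2 weeks and 29.1 to 51.6 (median 34.2) at 4 weeks (log2 fold change 2.78, SE 0.14, adjusted p = 1.34e-09). Arrdc2, an alpha-arrestin, had 2.0 to 3.36 CPM (median 3.07) at 2 weeks and 8.03 to 23.2 (median 19.1) at 4 weeks (log2 fold change 2.62, SE 0.27, adjusted p = 5.33e-06). Dusp13, a phosphatase, had 12 to 14.9 CPM (median 13.4) at 2 weeks and 50.3 to 84.4 (median 62.9) at 4 weeks (log2 fold change 2.32, SE 0.12, adjusted p = 1.34e-09). Asb11, a substrate adaptor of ubiquitin ligases, rose by 2.14 and Mettl21e, a muscle methyltransferase, by 2.32. Cyp2e1 (2.52), a cytochrome P450, Hs3st5 (2.16), which sulfates heparan chains, Cst6 (2.07), a protease inhibitor, and Tspan8 (1.91), a tetraspanin, rose to levels that no 2-week library reached. Ctxn3 rose by 1.92, Abcb4, a phospholipid transporter, by 1.89, and Mss51, a muscle gene linked to mitochondrial metabolism, by 1.91. Smox, spermine oxidase, had 15.9 to 19.3 CPM (median 18.7) at 2 weeks and 56.3 to 124 (median 57) at 4 weeks (log2 fold change 1.93, SE 0.19, adjusted p = 5.84e-06), with its highest value in animal 4.

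The 14 largest falls were, beside Myh8 and Myh3, mostly genes of the sets above. They held Meg3, Rtl1, Mirg and Rian of the imprinted domain, Mymx of fusion, and Kif18b (-2.69), Hist1h3c, Mki67, Aspm (-2.53) and Top2a of dividing cells. The other 2 were Arhgap36, with 5.42 to 11 CPM (median 7.99) at 2 weeks and 0.317 to 1.17 (median 0.528) at 4 weeks (log2 fold change -3.72, SE 0.30, adjusted p = 1.36e-08), and Prr32 (-2.78). No 4-week library reached the range of the 2-week libraries in any of the 14, although Mki67, Aspm and Top2a were nearest to it in animals 1 and 2.

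Genes of protein breakdown rose in growing muscle. Of 21 ubiquitin ligases and autophagy genes 17 rose and none fell, with a median of 0.65 (0.51 in pool A and 0.77 in pool B). Fbxo40, a muscle ligase that acts on the insulin signal, had 163 to 185 CPM (median 172) at 2 weeks and 372 to 510.2 (median 469) at 4 weeks (log2 fold change 1.42, SE 0.08, adjusted p = 1.17e-09). Trim63 and Fbxo32, the ligases MuRF1 and atrogin-1 known from atrophy, rose by 0.91 and 0.85, and Sqstm1, an autophagy receptor, by 1.01. With library sizes alone 9 members were higher and 3 lower, at a median of 0.17.

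Targets of glucocorticoids and fasting rose in 13 of 17 genes, with 1 lower (Angptl4) and a median of 0.70 (0.59 in pool A and 0.76 in pool B). With library sizes alone 4 were higher and 3 lower, at a median of 0.23. Fkbp5, a classic target of the glucocorticoid receptor, had 5.11 to 6.8 CPM (median 6.02) at 2 weeks and 12.6 to 18.2 (median 13.8) at 4 weeks (log2 fold change 1.29, SE 0.09, adjusted p = 1.36e-08). Klf15 rose by 1.25, Klf9 by 0.87 and Zbtb16 by 0.88. The largest value of the list, 2.56 for the metallothionein Mt2, rested on 1 animal, since animal 6 had 12.8 CPM and the other 5 had 0.478 to 2.33, and the lowest value with 1 library left out was 0.95. For thyroid hormone, which is known to drive the switch of myosins, Thrb, a receptor, had 8.15 to 11.3 CPM (median 8.38) at 2 weeks and 16.5 to 26.4 (median 20) at 4 weeks (log2 fold change 1.19, SE 0.12, adjusted p = 6.92e-07), the transporter Slc16a10 rose by 0.85 and the receptor partner Rxrg by 0.96. Thra stood at 0.05 (adjusted p = 0.598), and in all 6 of 12 genes rose and 2 fell, at a median of 0.28 that turned to -0.19 with library sizes alone.

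**Figure D4:**
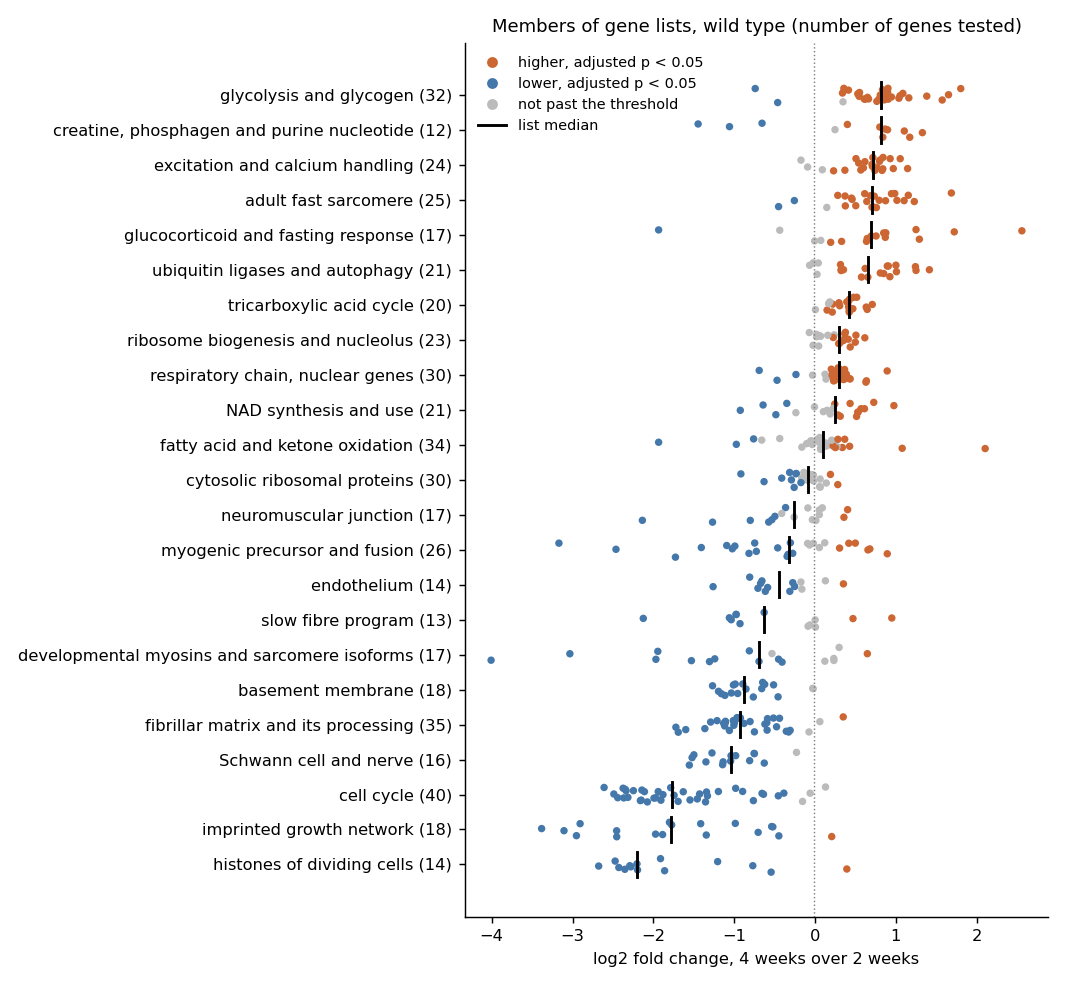
Log2 fold change, 4 weeks over 2 weeks, of each gene tested in 23 lists, ordered by the list's median (black bar), with genes past an adjusted p of 0.05 in orange (higher) and blue (lower), others in grey, and a dotted line at the median of all genes. Lists of cell division, imprinted genes and matrix lie left of the line and fast sarcomere, calcium and glycolysis right; with library sizes alone the medians of the tricarboxylic acid cycle, respiratory chain, ribosome biogenesis, NAD and fatty acid lists turn below 0.

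The wild-type libraries of 6 and 8 weeks, scaled together with these 12, show whether levels at 4 weeks were near those of older muscle. They are given as values without a test. Of the older animals, 35 was labelled female and 16, 17, 34, 36, 37 and 38 male, and the part of sex in these values was not tested. The 8-week animals 34 and 35 held 20.3 and 23.1% nuclear rRNA, against at most 0.401% in the other older libraries. Their total counts were low, at 5192700 and 6716006. Myh8 had 332 ± 50.4 CPM at 2 weeks (SD, n = 6), 20.7 ± 8.28 at 4 weeks (n = 6), 7.04 and 8.18 in the 2 libraries of 6 weeks and 5.92 ± 2.54 at 8 weeks (n = 5), and all 7 older libraries lay below the lowest 4-week library. Meg3 had 171 ± 28.1 CPM at 2 weeks (SD, n = 6), 16.6 ± 3.24 at 4 weeks (n = 6), 5.83 and 7.72 in the 2 libraries of 6 weeks and 9.41 ± 6.25 at 8 weeks (n = 5). At 8 weeks the rRNA-rich animal 35 had 20.3 CPM of Meg3, within the 4-week range, and the other 4 had 5.36 to 8.77. Nampt had 59.2 ± 8.57 CPM at 2 weeks (SD, n = 6), 116 ± 17.9 at 4 weeks (n = 6), 183 and 199 in the 2 libraries of 6 weeks and 187 ± 25 at 8 weeks (n = 5), above its 4-week level in all 7 older libraries. Ckm, in contrast, had 10770.5 ± 598 CPM at 2 weeks (SD, n = 6), 23756 ± 2419 at 4 weeks (n = 6), 19464 and 25665 in the 2 libraries of 6 weeks and 15631 ± 5086 at 8 weeks (n = 5) , and no older library exceeded the highest 4-week library. Smox had 16.5 ± 1.13 CPM at 2 weeks (SD, n = 6), 63.8 ± 25 at 4 weeks (n = 6), 366 and 885 in the 2 libraries of 6 weeks and 372 ± 294 at 8 weeks (n = 5), with a wide spread at the older ages. Mki67 had 53 ± 11.7 CPM at 2 weeks (SD, n = 6), 11.8 ± 12.7 at 4 weeks (n = 6), 8.16 and 14.3 in the 2 libraries of 6 weeks and 2.17 ± 1.28 at 8 weeks (n = 5). One 8-week wild-type library (animal 36) is rich in slow myosin, with 8534 CPM of Myh7 against 119 to 604 in the other 4, and it is the low point of Ckm and Actn3 at that age.

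**Figure D5:**
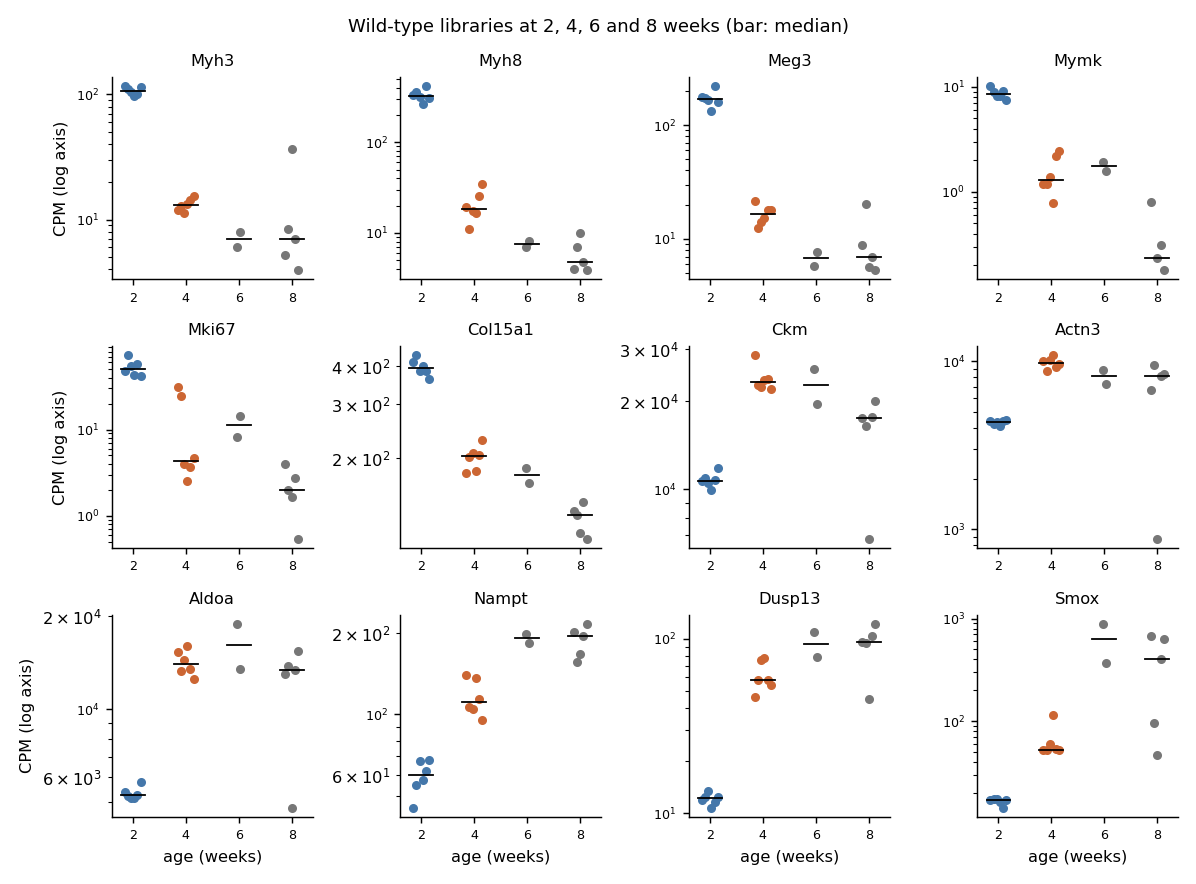
CPM (log axis) of 12 genes in the 19 wild-type libraries by age in weeks, with 2 weeks in blue, 4 weeks in orange, older ages in grey and bars at the median. Myh3, Myh8, Meg3 and Mymk have most of their fall between 2 and 4 weeks, while Nampt and Smox are higher still at 6 weeks, and the low 8-week points of Ckm, Actn3 and Aldoa belong to animal 36.

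To set wild-type growth beside that of the Nampt knockout, the change from 2 to 4 weeks was compared with that of 5 knockout libraries of each age. The 2-week knockout animals 22, 28, 29 and 30 were of pool A, so in pool B that group rests on animal 31 alone. At 4 weeks knockout animals 7 and 8 were of pool A and animals 10, 11 and 12 of pool B. Of these 4-week animals only animal 11 was labelled female, and sex was not collected at 2 weeks. Nampt itself had 31.7 to 35.7 CPM at 2 weeks and 55.5 to 76.9 at 4 weeks in the knockout libraries, below the 50.4 to 75.6 and 105 to 154 of wild type on the same scale, but not absent, and it changed by 0.97 in wild type and 0.90 in knockout (difference -0.07, SE 0.16, adjusted p = 0.926). The difference between genotypes passed the threshold for 1 of 15296 genes (0.00654%), with 1647 at an unadjusted p under 0.05. That gene was Ift122, of the transport system inside cilia. It had 24.9 to 29.6 and 18.8 to 28.6 CPM in wild type at 2 and 4 weeks, and 27.1 to 30.3 and 41.8 to 46.1 in knockout, changing by -0.12 in wild type and 0.65 in knockout (difference 0.77, SE 0.12, adjusted p = 0.0118). The count rose to 43 with DESeq2, 46 without knockout animal 10, 15 without knockout animal 11, 5 without knockout animal 8 and 2 without wild-type animal 24, 1 or 4 or knockout animal 30 or 7, and it was 0 without wild-type animal 23 or knockout animal 31.

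For some of the members described above both genotypes' values are set side by side, and a p that misses the threshold does not show that they were equal. Myh8 changed by -3.99 in wild type and -4.07 in knockout (difference -0.08, SE 0.35, adjusted p = 0.968) and Meg3 by -3.34 in wild type and -3.31 in knockout (difference 0.03, SE 0.21, adjusted p = 0.983). Myh3 changed by -3.01 in wild type and -2.25 in knockout (difference 0.76, SE 0.26, adjusted p = 0.34), and Mki67 by -2.51 in wild type and -2.04 in knockout (difference 0.47, SE 0.78, adjusted p = 0.877). Wider gaps also missed the threshold. Mss51 changed by 2.08 in wild type and -1.43 in knockout (difference -3.51, SE 0.80, adjusted p = 0.256), Chrng by -2.16 in wild type and -0.52 in knockout (difference 1.65, SE 0.48, adjusted p = 0.33) and Myh13 by -0.36 in wild type and -1.95 in knockout (difference -1.59, SE 0.28, adjusted p = 0.0553). Nmrk2, a kinase of nicotinamide riboside on a route to NAD, was added after its values were seen, and changed by 0.68 in wild type and 2.97 in knockout (difference 2.29, SE 0.64, adjusted p = 0.33). The median change of the fast sarcomere list was 0.75 in wild type and 0.68 in knockout, that of the cell cycle list -1.76 and -1.42, and that of the imprinted list -1.78 and -1.94. Other medians lay further apart. They were -1.02 and -0.31 for Schwann cell and nerve markers, 0.67 and 1.14 for ubiquitin ligases and autophagy, 0.68 and 1.1 for glucocorticoid and fasting targets and -0.25 and 0.28 for macrophage markers, in wild type and knockout. No member of these lists passed the test of the difference, and the lists' own differences were not tested.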

How the data were processed

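RNA from gastrocnemius muscle was sequenced as stranded paired-end libraries after removal of ribosomal RNA, per the labels' protocols. The deposited table holds whole-number counts per Ensembl gene, not normalized. Per the submitters' processing notes, the build was mm10 and the tools included featureCounts 1.5.2, STAR 2.5.2b and edgeR 3.22.0. The annotation, the strand setting and whether reads or pairs were counted are not given in the sources used here, so overlapping and antisense genes are uncertain. Symbols and positions came from GENCODE vM21, which matched 50462 of 50686 identifiers, and 20025 genes had no count in the 12 libraries.

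The robust quasi-likelihood test of edgeR 4.0.16 (limma 3.58.1, R 4.3.3) was run on the 12 libraries with TMM factors and terms for age and pool. The filter filterByExpr (count 10, total 15) removed genes that held no more than 0.261% of any library. Dispersion gave a common coefficient of biological variation of 0.133, and 9 degrees of freedom remained. Adjusted p-values are Benjamini-Hochberg over all genes tested. CPM are TMM-scaled counts divided by library size and scaled as usual, FPKM are the same per kilobase of union exon, and values of wild-type ages use the 19 wild-type libraries scaled together. The difference between genotypes is the interaction term over 22 libraries. The fits were also run on simulated data with few changed genes, equally many up and down, so that run does not check the scaling.

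The members, the 42 gene lists (746 of 784 symbols tested) and the tests were chosen with earlier results of these data known. Junb, entered in the calcium list by mistake, was removed from it after values were seen. Named genes are the 14 largest rises and falls among called genes (mean log2 CPM of at least 1, same sign in both pools, without predicted, pseudo-, mitochondrial, small-RNA and sex-linked genes), up to 4 members of each list by p, and fixed genes. Any other gene with values was chosen after its values were seen, and some genes are not reported here. Alternatives were other scaling factors, no filter or a minimum count of 50, DESeq2 1.42.0, no pool term, each pool alone, Xist and Ddx3y levels as a covariate, all 37 libraries, no rRNA-rich libraries, and each library left out.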

Additional observations from a re-analysis of the deposited data

Results flagged for a closer look

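In 18 of 174 groups examined (a gene, a list's sum or a library measure at 1 age), 1 library lay far from the other 5. For independent, normally distributed values the cut-off would flag about 1 in 20. CPM and list sums that share genes need not be of that kind, and an excess over chance was not tested. At 4 weeks, Smox had 124 CPM in animal 4 and 56.3 to 64.8 in the other 5 4-week libraries. Ctxn3 had 28.2 CPM in animal 4 and 14.7 to 18.8 in the other 5 4-week libraries. Hist1h3c had 4.92 CPM in animal 2 and 0.12 to 1.09 in the other 5 4-week libraries. Myh4 had 90819.5 CPM in animal 1 and 54407 to 66208 in the other 5 4-week libraries. Myh1 had 6330.1 CPM in animal 1 and 4886 to 5422 in the other 5 4-week libraries. The creatine and purine list summed to 37082 CPM in animal 1 against at most 31496 in the others, the fatty acid list to 6738 in animal 6 against at most 4777, and the NAD list to 743 in animal 4 against at most 671. Mitochondrially encoded RNA held 25% of counts in animal 3 against at most 10.9%.

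At 2 weeks, animal 25 had 95.7 CPM summed over lymphocyte markers and 402 over interferon and antigen presentation genes, against at most 17.2 and 242 in the others, and its imprinted list summed to 9141 against at least 9957. Rtl1 had 19.4 CPM in animal 26 and 11.2 to 14.1 in the other 5 2-week libraries. Cst6 had 1.94 CPM in animal 32 and 1.37 to 1.59 in the other 5 2-week libraries. Pln had 0.567 CPM in animal 23 and 0.925 to 1.07 in the other 5 2-week libraries. Smox had 15.9 CPM in animal 26 and 18.2 to 19.3 in the other 5 2-week libraries. The mitochondrial biogenesis list summed to 1148 CPM in animal 32 against at most 1088, and the pericyte and smooth muscle markers to 1644 in animal 21 against at least 1774.

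The change from 2 to 4 weeks of Ift122 differed between genotypes by 0.77 log2 units, by the test of the difference itself.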

How the results depend on the processing

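The number of genes changed ran from 7628 to 8570 when each library was left out in turn (higher from 3760 to 4265, lower from 3868 to 4401), and stayed within 1.5 times the main 8375 with RLE and upper-quartile factors, DESeq2 (8325), no pool term, no filter (9088), no rRNA-rich libraries (8312, of which 7664 were shared) and without animals 1 and 2 (8214, chosen after seeing the data). Pool A alone gave 4148 (2059 higher, 2089 lower) with 5 libraries. Library sizes alone gave 567 higher and 8201 lower, and reversed Myh4 (-0.10), Chrne (-0.46), Echs1 (-0.043), Got2 (-0.0043), Slc25a51 (-0.041), Dkc1 (-0.033), Polr1a (-0.0995) and H2-K1 (-0.0036). Of these reversed genes only Chrne passed the threshold there (adjusted p = 0.00858). Another 26 named genes kept their direction there but lost their call. They include Pvalb (0.34, adjusted p = 0.0613), Des (0.17, adjusted p = 0.282), Akt2 (0.27, adjusted p = 0.0626), Idh3a (0.23, adjusted p = 0.129) and Mfn2 (0.10, adjusted p = 0.527). The difference between genotypes gave 0 genes with library sizes alone, 8 with no filter, 43 with DESeq2, 3 with no pool term, and 0 to 46 when each library was left out.

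Animal numbers are unique to each animal. No paired analysis was possible because no number is shared between the groups. With all 37 libraries in the fit the calls of Adipoq, Cd38, Dcn, Fbxo32, H19, Igf1, Mybph and Pdgfra were lost, beside those named in the report, and without animals 1 and 2 those of Mt2 and Cd38. Genes under about 1 CPM, such as Mymx and Chrng at 4 weeks, rest on few counts. Sex was not labelled at 2 weeks, so it entered as a covariate from Xist and Ddx3y only.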

Other observations

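Most genes of the circadian clock were higher at 4 weeks. Of 17 clock genes 10 rose and 3 fell, with a median of 0.55 (0.49 in pool A and 0.58 in pool B), and with library sizes alone 4 were called higher and 4 lower, at a median of 0.06. Without animals 1 and 2 together 1 was called lower. Nr1d2, a repressor, had 84 to 114 CPM (median 102) at 2 weeks and 155 to 205 (median 159.6) at 4 weeks (log2 fold change 0.80, SE 0.08, adjusted p = 2.34e-07), Nr1d1 rose by 1.26, and Cry2 fell by 0.45. Arntl, the core activator, stood at 0.28 (adjusted p = 0.12). The hour of dissection is not given in the sources used here, and its part in these values was not tested.

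Of 19 splicing regulators 7 rose and 6 fell, shares near those of all genes. Rbfox1 had 94.7 to 105 CPM (median 97.3) at 2 weeks and 189 to 258 (median 213) at 4 weeks (log2 fold change 1.14, SE 0.08, adjusted p = 1.23e-08) while its relative Rbfox2 fell by 0.55. Mbnl1 and Mbnl2, which impose adult splicing, rose by 1.0 and 0.75, and Ptbp1, a repressor of adult exons, fell by 0.83. The list's median was 0.08 and turned to -0.40 with library sizes alone. Ribosomal protein genes mostly did not pass the test. In that list 9 of 30 fell (30%, near the 30.1% of all genes) and 2 rose (6.67%, against 29.1%), and 15 fell without animals 1 and 2. Among them Rpl3 had 62.8 to 71.5 CPM (median 68.6) at 2 weeks and 27.6 to 45.8 (median 34.9) at 4 weeks (log2 fold change -0.92, SE 0.11, adjusted p = 3.82e-06). Ribosome biogenesis genes rose in 13 of 23 with none lower, at a median of 0.30 that turned to -0.17 with library sizes alone.

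Genes of the interferon response and antigen presentation mostly did not pass the test. Of 24, 3 rose (12.5%, against 29.1% of all genes) and 1 fell (4.17%, against 30.1%), at a median of 0.09 that turned to -0.37 with library sizes alone (1 higher, 7 lower). Without the 2-week animal 25 the number higher was 11. It was 6 without animal 5, 1 without animal 21 or 23 and 2 without animal 2, when 3 fell.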
